A study of Mus musculus with 2 samples.

Results

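The 1050 genes described here lie on mouse chromosome 6. They are all the genes whose probe set identifier on the array names that chromosome and carries exactly 1 gene symbol, out of 19505 genes measured. The chromosome was selected on the signal differences between these same arrays, where its genes were higher as a group in aged gastric organoids, so that shift is given below as a description and nothing is tested on it. Total RNA of aged gastric organoids, from mice aged more than 18 months, was set against total RNA of young gastric organoids, from mice aged between 2 and 4 months, with 1 Clariom S array per group. Clariom S arrays measure each gene with probes spread over its exons. The mice of the study were C57BL/6, and the organoids, spheres of gastric epithelium grown from stomach tissue, were cultured in medium with EGF, Noggin, FGF10, Wnt3a, R-Spondin1, Chir99021 and inhibitors, which both groups share. The sources used here do not say how many animals stand behind an array. Without replicates no difference was tested, no error could be measured, and age cannot be told apart from any other difference between these cultures. Because the RNA is of whole cultures, fewer cells of a type and less RNA per cell cannot be told apart either.

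Chromosome 6 of the mouse carries several large gene families side by side. The HOXA cluster encodes homeobox transcription factors that set positional identity along the body, the natural killer gene complex encodes C-type lectin receptors and their ligands, and the taste and vomeronasal receptors serve chemical sensing in other tissues. The chromosome also holds the gastrokines, which stomach mucous cells secrete, the Reg family of secreted lectins, a group of imprinted genes near its proximal end, and single genes for the cell cycle, glycolysis and mitochondria. Neighboring genes need not be expressed in the same cells, and most of the receptor families are silent in epithelium.

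Promoters are shown first for 6 of the genes the results turn on. They come from RefSeq (GRCm38.p6) and run from 250 bases before to 50 bases after the gene's start, written 5′ to 3′ on the gene's own strand. *Cdca3* (chr6:124829926-124830225, plus strand) encodes a trigger of mitotic entry, *Ncapd2* (chr6:125191537-125191836, minus strand) a condensin subunit that compacts chromosomes, and *Mcm2* (chr6:88898731-88899030, minus strand) a subunit of the replicative helicase. All 3 were at least 2-fold higher in aged organoids and hold both a CCAAT box and the letters TTTGAA, a core shared by cell cycle gene promoters. Capitals mark CCAAT and TTTGAA on either strand (ATTGG and TTCAAA on the other strand), and the motifs do not overlap.
Cdca3: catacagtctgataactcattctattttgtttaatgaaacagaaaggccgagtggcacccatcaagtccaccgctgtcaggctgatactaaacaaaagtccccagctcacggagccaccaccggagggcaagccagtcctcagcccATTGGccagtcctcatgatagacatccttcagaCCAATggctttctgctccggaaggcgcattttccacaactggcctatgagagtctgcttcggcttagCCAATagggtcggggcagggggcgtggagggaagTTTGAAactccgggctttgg
Ncapd2: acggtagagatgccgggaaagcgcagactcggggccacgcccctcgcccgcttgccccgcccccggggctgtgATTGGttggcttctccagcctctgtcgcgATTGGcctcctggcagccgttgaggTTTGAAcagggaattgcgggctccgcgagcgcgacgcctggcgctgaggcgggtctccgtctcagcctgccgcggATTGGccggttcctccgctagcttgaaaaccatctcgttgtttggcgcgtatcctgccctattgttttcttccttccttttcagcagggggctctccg
Mcm2: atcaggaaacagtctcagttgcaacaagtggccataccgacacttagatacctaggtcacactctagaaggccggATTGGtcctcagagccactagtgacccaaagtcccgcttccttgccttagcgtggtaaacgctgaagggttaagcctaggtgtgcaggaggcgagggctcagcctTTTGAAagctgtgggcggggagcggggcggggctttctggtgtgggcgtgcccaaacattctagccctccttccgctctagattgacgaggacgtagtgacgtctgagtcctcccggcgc
The next 3 promoters show the range of CpG content among genes far apart between the arrays, with each CpG in capitals. *Cdkn1b* (chr6:134920151-134920450, plus strand), the gene for the cyclin-dependent kinase inhibitor p27, and *Clec2e* (chr6:129100854-129101153, minus strand), a C-type lectin-like gene, were higher in aged organoids. *Gkn3* (chr6:87388886-87389185, minus strand), a gastrokine gene, was lower. The promoter of *Cdkn1b* has 30 CpG, that of *Clec2e* 1 and that of *Gkn3* 5.
Cdkn1b: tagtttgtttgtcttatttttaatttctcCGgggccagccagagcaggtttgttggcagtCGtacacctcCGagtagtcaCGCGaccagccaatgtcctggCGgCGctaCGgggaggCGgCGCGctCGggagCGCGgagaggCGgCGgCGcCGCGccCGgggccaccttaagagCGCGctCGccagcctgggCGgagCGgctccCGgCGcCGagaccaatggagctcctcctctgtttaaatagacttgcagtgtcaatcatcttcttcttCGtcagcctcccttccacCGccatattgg
Clec2e: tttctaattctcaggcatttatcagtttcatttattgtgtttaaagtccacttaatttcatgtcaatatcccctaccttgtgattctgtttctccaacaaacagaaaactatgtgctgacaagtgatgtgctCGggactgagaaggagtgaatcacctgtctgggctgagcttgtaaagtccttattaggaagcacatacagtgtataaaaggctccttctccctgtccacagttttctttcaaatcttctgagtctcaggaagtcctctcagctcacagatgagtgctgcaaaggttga
Gkn3: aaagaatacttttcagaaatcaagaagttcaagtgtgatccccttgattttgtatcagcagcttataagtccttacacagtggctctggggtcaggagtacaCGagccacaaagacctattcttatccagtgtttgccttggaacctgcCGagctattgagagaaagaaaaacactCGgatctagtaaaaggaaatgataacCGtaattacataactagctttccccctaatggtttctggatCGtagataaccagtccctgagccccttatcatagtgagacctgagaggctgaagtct

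Both cultures had the RNA of epithelium. All 9 markers listed for gastric epithelium, such as the gastric claudin gene *Cldn18* and the keratin gene *Krt8*, gave signals of 11.4 to 17.5 on the aged array and 10.5 to 18.01 on the young array. Most of these markers are not particular to the stomach. The background of an array was taken as the level that 95% of 1412 olfactory or vomeronasal receptor genes do not exceed, since this tissue is not known to use them. It was 5.54 on the aged array and 5.36 on the young array. None of the 6 leukocyte, 6 endothelial and 3 muscle markers measured was above it on either array, and 2 of 5 fibroblast markers, *Col1a1* and *Lum*, reached no more than 6.15. All signals and differences below are on the log2 scale of the authors' normalization, where base 2 is assumed because the sources do not state it.

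Of the 1050 chromosome 6 genes, 552 (52.6%) were above background on at least 1 array. These 552 genes had a median signal of 9.75 on the aged array and 8.86 on the young array, and a median difference, aged minus young, of 0.68. At least 2-fold higher in aged organoids were 181 of them (32.8%), against 11.3% of all 11558 genes above background, and 34 (6.16%) were at least 2-fold lower, against 11.8%. The difference was above 0 for 439 genes (79.5%), against 50.1% of all genes. The shift chose the chromosome, so nothing is read from these shares. Chromosome 6 held 13.8% of all genes at least 2-fold higher and 2.48% of those at least 2-fold lower, and 4.78% of all genes above background. A gene enters these counts if it passes the background on either array, so 30 genes entered through the aged array alone and 24 through the young array alone. The 498 genes above background on both arrays also had a median difference of 0.68, with 167 of them at least 2-fold higher and 21 at least 2-fold lower.

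The difference was spread over the whole distribution of the genes above background, with quartiles at 0.16 and 1.15 and the tenth and ninetieth percentiles at −0.52 and 1.89. The interquartile range of 0.989 was within the 0.859 to 1.20 seen on the other chromosomes outside chromosome 12. Counted from its own median, chromosome 6 had 68 genes (12.3%) at least 2-fold above that median and 73 (13.2%) at least 2-fold below it. Over chromosomes 1 to 19 and X, each counted from its own median, these shares were 10.4% and 11.9%. The 498 other members, under background on both arrays, had a median difference of 0.09, against 0.02 to 0.10 for such genes of the other chromosomes. Among them are 114 of the 120 taste, olfactory and vomeronasal receptor genes of chromosome 6. Olfactory and vomeronasal receptor genes set the background, so most of them lie under it by definition.

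Chromosome 12 was the nearest in shift. There, 409 of 586 genes were above background, with a median difference of 0.60, 117 genes (28.6%) at least 2-fold higher and 23 (5.62%) at least 2-fold lower. On the remaining 18 chromosomes the medians lay between −0.10 (chromosome 8) and 0.03 (chromosome 13), the share of genes at least 2-fold higher between 6.93% and 16.5%, and the share at least 2-fold lower between 10.3% and 14.8%. Pooled, those 18 chromosomes had 10568 genes above background and a median difference of −0.04.

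**Figure D1:**
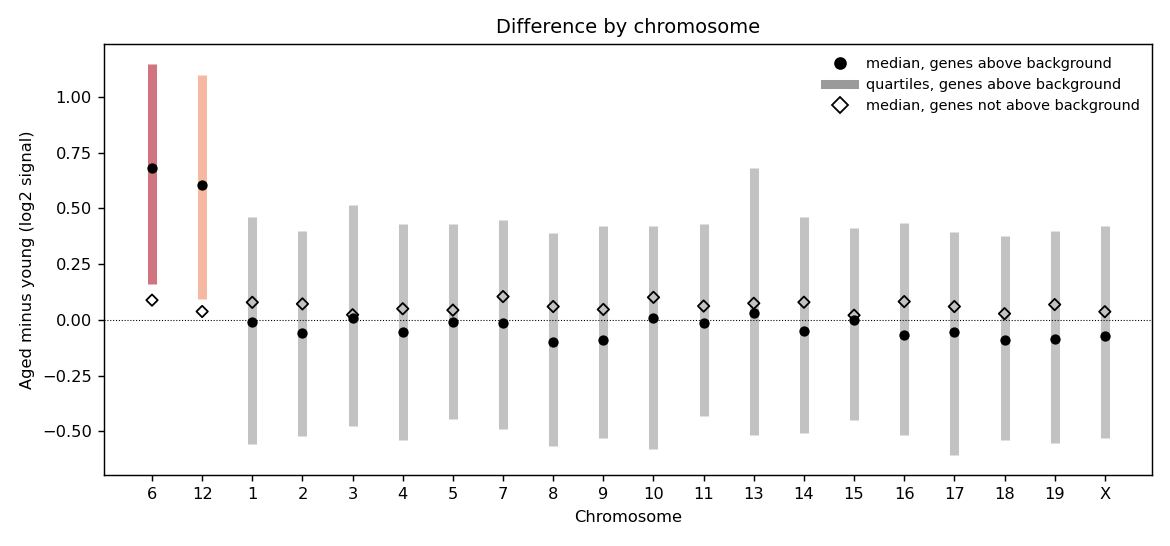
The difference, aged minus young in log2 signal, is plotted for each chromosome, with the filled point at the median and the bar from the lower to the upper quartile of genes above background on at least 1 array; open diamonds give the median of genes not above background. Chromosomes 6 (0.68) and 12 (0.60) sit above all others (−0.10 to 0.03), while the open diamonds of all chromosomes lie between 0.02 and 0.10.

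Among the genes above background, the shift was present at every level of signal. Those with a mean signal under 7 had a median difference of 0.41 (143 genes), against −0.02 on the 18 other chromosomes. Genes under background on both arrays are not in these groups. The medians of brighter genes were 0.88 from 7 to 9 (104 genes), 0.80 from 9 to 11 (135 genes), 0.78 from 11 to 13 (98 genes) and 0.75 above 13 (72 genes), where the 18 chromosomes had −0.09 to 0.02. By gene length and strand the medians were alike, with 0.66, 0.65 and 0.76 for the shortest, middle and longest genes, 0.68 for genes of the plus strand (246 genes) and 0.76 for those of the minus strand (232 genes).

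**Figure D2:**
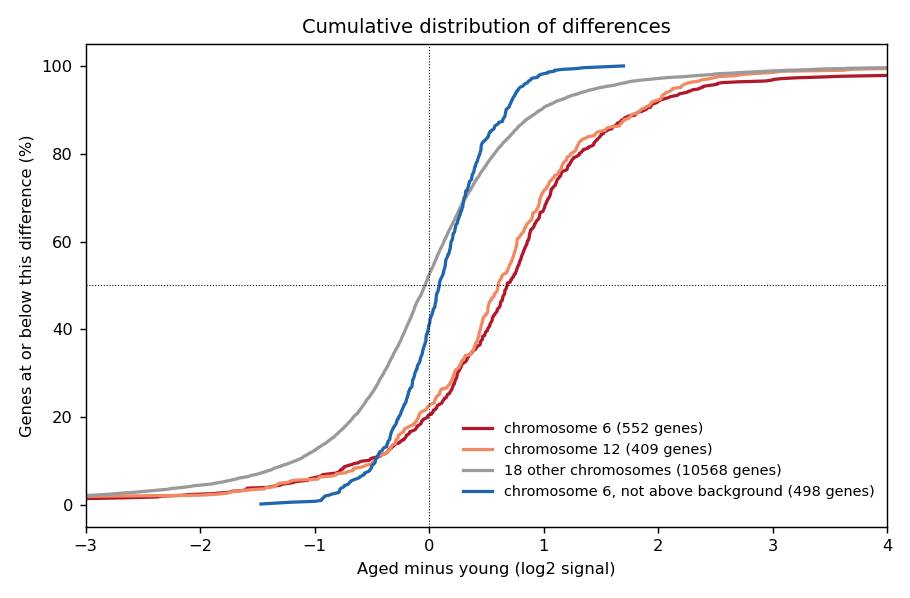
The curves give the percentage of genes at or below each difference (aged minus young, log2 signal) for chromosome 6, chromosome 12, the other 18 chromosomes and the chromosome 6 genes not above background. The curve of chromosome 6 crosses 50% at 0.68 and that of chromosome 12 at 0.60, whereas the pooled chromosomes cross at −0.04 and the genes not above background at 0.09.

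The 10 brightest chromosome 6 genes show the shift and its exceptions. *Gapdh*, the glycolytic dehydrogenase, had a signal of 18.72 on the aged array and 17.97 on the young array, a difference of 0.74. *Rpl32*, a ribosomal protein gene, was at 17.45 and *Anxa4*, an annexin of secretory epithelium, at 17.44 on the aged array, against 16.68 and 16.64 on the young array (differences of 0.77 and 0.80). *Serbp1*, which binds messenger RNA, differed by 0.86 and *Lpcat3*, which remodels membrane phospholipids, by 0.996, just under the 2-fold line. Below the chromosome's median were *Rab7* of late endosomes (0.37), the asparagine synthetase *Asns* (0.25) and the glutathione transferase *Mgst1* (−0.17). *Ccnd2*, a cyclin of the first gap phase, and *Tmem176b*, a membrane protein, had the lowest differences of the 10 (−1.29 and −0.98), at 16.39 and 16.18 on the aged array against 17.67 and 17.16 on the young array.

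The number in the probe set identifier does not follow the chromosome in a single pass. It runs along the plus strand from *Vps50* to *Resf1* (515 genes, 443 of them annotated on the plus strand and none on the minus strand), then starts again along the minus strand from *Samd9l* to *Amn1* (505 genes, 431 on the minus strand), and ends with 2 short runs of 13 and 17 genes. Within the runs the identifier order matched the order of starts in RefSeq (Spearman's rho from 0.988 to 1). The first run had a median difference of 0.66 over 276 genes above background and the second 0.74 over 262. In identifier order the 552 genes were split into 20 windows of 27 or 28 genes, whose medians ran from 0.33 to 0.99, and in each window more genes were at least 2-fold higher than lower. Sorted instead by their start in RefSeq, the 20 medians ran from 0.26 to 0.99, again with more genes higher than lower in every window. The positions below use that order, from proximal to distal.

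**Figure D3:**
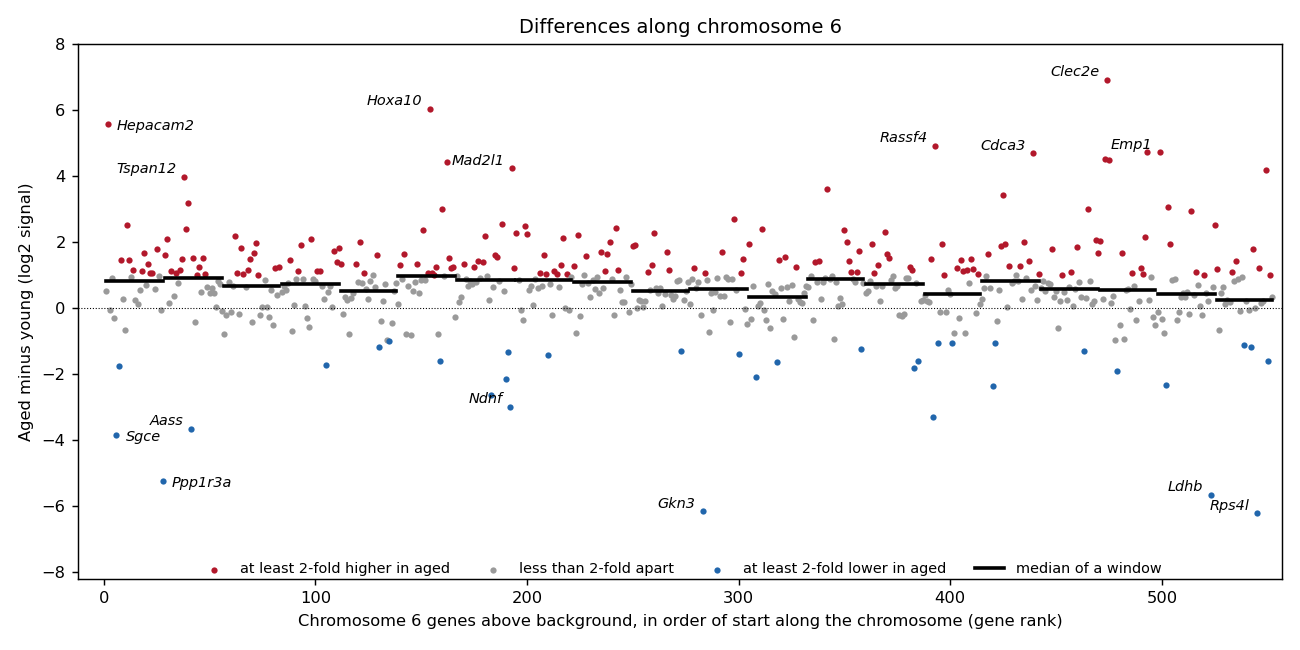
Each point is 1 of the 552 chromosome 6 genes above background, placed by its rank along the chromosome, with aged minus young in log2 signal on the vertical axis; black bars are the medians of 20 windows of neighboring genes. All bars lie above 0, from 0.26 to 0.99, while the far points reach 6.91 (*Clec2e*) and −6.22 (*Rps4l*, measured under background on the aged array).

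The highest window was the sixth, from *Tra2a* to *Ggct*, which holds the HOXA cluster (median 0.99, 14 of 28 genes at least 2-fold higher and 1 lower). The second window, from *Foxp2* to *Ccdc136*, was close to it at 0.91, with 14 higher and 1 lower. Low medians were found in the twelfth window, from *Zxdc* to *Uba3* (0.34, 5 higher and 2 lower), and in the last, from *Etnk1* to *Resf1* (0.26, 7 higher and 4 lower). The last window thus had the lowest median along the chromosome, yet it also holds *Dennd5b*, a regulator of Rab proteins, which was at 10.63 on the aged array and 6.46 on the young array. With 40 windows in RefSeq order the medians ran from 0.11 to 1.32, and 37 windows had more genes higher than lower.

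Neighboring genes resembled each other little beyond the common shift. Over the 551 pairs of adjacent genes above background, Pearson's r between their differences was 0.07 and Spearman's rho 0.09, as a description across genes that share both arrays. On the other chromosomes Pearson's r ran from −0.09 on chromosome 8 to 0.41 on chromosome 13. The longest unbroken run above 0 comprised 28 adjacent genes from *M6pr* to *Vamp1*, with differences of 0.02 to 4.68. It contains *Apobec1*, an RNA-editing enzyme of intestinal epithelium (1.93), the glycolytic *Tpi1* (1.44) and *Gapdh* (0.74), and the mitotic *Cdca3* (4.68). The longest runs at least 2-fold higher comprised 5 genes. There were 2 of them as measured, *Hoxa5* to *Tax1bp1* in the HOXA window and *Cftr*, *Lsm8*, *Tspan12*, *Ing3* and *Fam3c*. In the HOXA window, *Hoxa5* and *Hoxa11os* were under background on the young array. They were at least 1.65-fold and 1.22-fold higher, so that run is shorter at the bounds. In the run that starts with *Cftr*, differences went from 1.15 for *Cftr*, the chloride channel of secretory epithelia, to 3.98 for *Tspan12*, a tetraspanin that aids Frizzled signaling. In the other direction, no run below 0 was longer than 3 genes, a length reached at several places, among them *Casd1*, *Sgce* and *Ppp1r9a* in the first window. The longest run at least 2-fold lower was *Hpgds*, *Tnip3* and *Ndnf* in the seventh window, from −2.99 to −1.33. The signal of *Hpgds* on the aged array was under background, so its difference is a bound of at least 1.82-fold. Of the genes above background, 79.5% were above 0, 32.8% at least 2-fold higher and 6.16% at least 2-fold lower. Runs arise from such shares in any order, so nothing about position is read from their lengths.

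Far above the common shift stood a small number of genes. *Clec2e* had a signal of 12.85 on the aged array and 5.94 on the young array, a difference of 6.91. *Clec2f*, at 12.01 and 7.49, and *Clec2d*, at 14.62 and 10.12 on the aged and the young array, lie beside it and were higher by 4.51 and 4.50. *Clec2d* encodes a ligand of an inhibitory receptor of natural killer cells, and because the *Clec2* genes are close copies of one another, their probes may share signal. The homeobox gene *Hoxa10* was at 12.05 on the aged array and 6.01 on the young array (6.04). *Hepacam2*, an adhesion molecule of the immunoglobulin family, was at 11.01 on the aged array, and at 5.45 on the young array it was barely above background (5.57).

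Several of the other large differences belong to cell cycle control and the cell surface. *Cdkn1b*, whose product p27 restrains cyclin-dependent kinases, was at 11.07 on the aged array and 6.34 on the young array, a difference of 4.73. *Rassf4*, of a family of Ras-binding proteins, was at 11.45 and 6.54 on the aged and the young array (4.91). *Emp1*, an epithelial membrane protein, was at 13.13 on the aged array and 8.42 on the young array (4.71). All 3 were above background on both arrays, *Cdkn1b* and *Rassf4* by little on the young array. *Mad2l1*, of the spindle checkpoint, differed by 4.24 (14.15 aged, 9.92 young), and *Tspan12* by 3.98 (16.73 aged, 12.75 young). *Chl1*, an adhesion molecule of neurons, differed by 3.60, the secreted *Fam3c* by 3.19 and *Gucy2c*, the intestinal receptor of guanylin, by 3.07 (8.50 aged, 5.43 young).

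**Figure D4:**
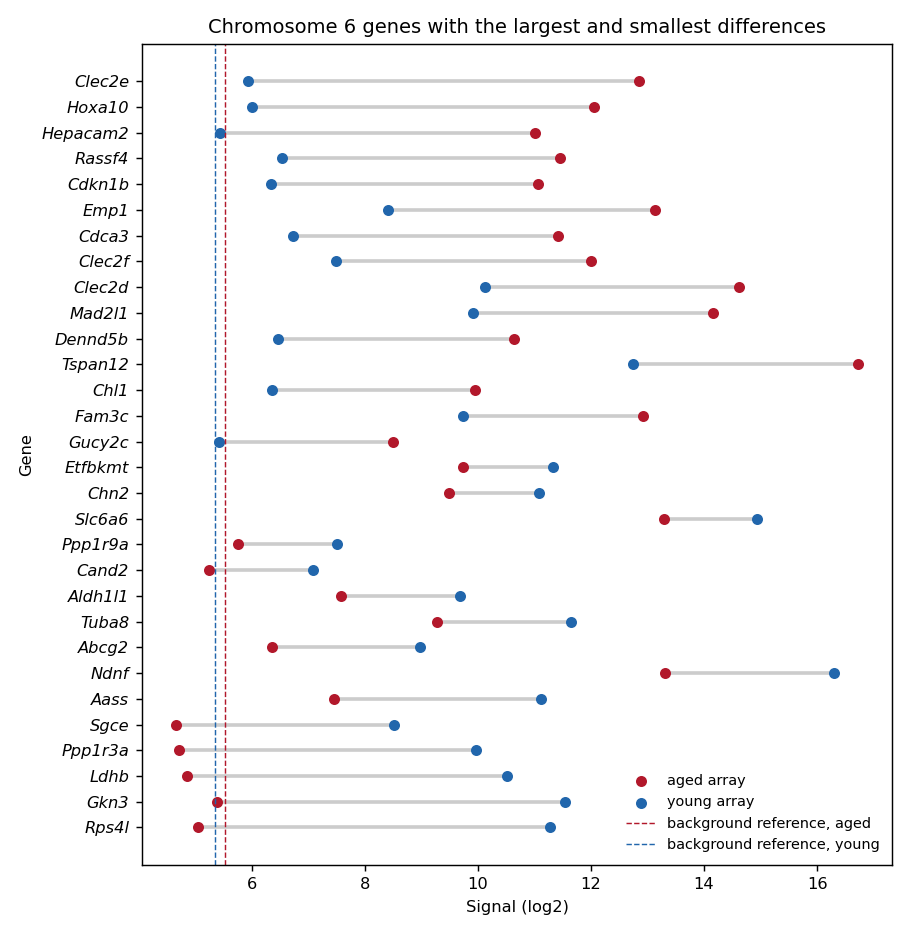
Signals (log2) are drawn for 30 chromosome 6 genes, 15 from each end of the range of differences, with the aged array in red, the young array in blue and dashed lines at the background reference of each. Aged signals of *Gkn3*, *Rps4l*, *Ldhb*, *Ppp1r3a*, *Sgce* and *Cand2* lie under their line, so that these genes have bounds, while all 15 higher genes are above the line on both arrays.

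Against the shift, 34 genes were at least 2-fold lower in aged organoids. *Gkn3*, which encodes a gastrokine secreted by stomach mucous cells, was at 5.39 on the aged array, under background, and at 11.54 on the young array, at least 64.1-fold lower. *Rps4l*, a ribosomal protein S4 copy whose probes may share signal with its relatives, was at 5.05 on the aged array and 11.27 on the young array (at least 53.3-fold lower). *Ldhb*, the B subunit of lactate dehydrogenase, was at 4.86 and 10.51 on the aged and the young array, at least 31.3-fold lower. These 3 genes were thus bright on the young array and under background on the aged one. Also under background on the aged array were *Ppp1r3a*, which directs a phosphatase to glycogen (4.71 aged, 9.96 young, at least 21.5-fold lower), and *Sgce*, an imprinted sarcoglycan gene (4.66 aged, 8.51 young, at least 7.84-fold lower).

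Others were lower but remained above background on both arrays. *Aass*, the first enzyme of lysine breakdown, was at 7.46 on the aged array and 11.11 on the young array (−3.66). *Ndnf*, a secreted factor, was bright on both arrays, at 13.30 on the aged array and 16.29 on the young array (−2.99). The efflux transporter *Abcg2* differed by −2.63 (6.36 aged, 8.98 young), the alpha tubulin *Tuba8* by −2.37, *Aldh1l1* of folate metabolism by −2.10, the taurine transporter *Slc6a6* by −1.64 and *Chn2*, which inactivates Rac, by −1.59. Smaller differences belonged to *Mxd1*, which opposes MYC (−1.29), *Tnip3*, an inhibitor of nuclear factor κB signaling (−1.33), *Camk1*, a calmodulin-dependent kinase (−1.23), and the clock gene *Arntl2* (−1.11). Of the 34 genes, 13 were under background on the aged array, and at their bounds 4 of these, *Klra9*, *Atp6v0e2*, *Hpgds* and *Efcab12*, were less than 2-fold apart, which leaves 30.

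Genes just inside and just outside the 2-fold line were alike in their values. *Chchd3* (1.002) and *Ndufa5* (1.004), both of mitochondria, were just inside, and *Zfp746* (0.999) and *Lpcat3* (0.996) just outside. On the lower side, *Tmem176a* (−1.01) and *Usp18* (−1.04) were inside and *Tmem176b* (−0.98) and *Klrk1* (−0.96) outside. *Klrk1* was under background on the aged array (4.89), so it was at least 1.23-fold lower and lies near the line only as measured. *Tmem176a* and *Tmem176b* are adjacent relatives, so the line separates a pair with nearly the same difference.

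At 21 places along the chromosome, adjacent genes above background were at least 2-fold apart in opposite directions. With genes under background at their bounds, 20 such places remain. The widest measured gap, 8.21, was between *Alox5*, the 5-lipoxygenase of leukotriene synthesis, and its neighbor *Rassf4* in the fifteenth window, but it is at least 6.39 at the bound of *Alox5*, less than the 7.23 between *Ndnf* and *Mad2l1*. *Alox5* was at 3.71 on the aged array, under background, and at 7.01 on the young array, at least 2.77-fold lower, while *Rassf4* was higher by 4.91. *Ndnf* (−2.99) stands beside *Mad2l1* (4.24), and *Aass* (−3.66) beside *Fam3c* (3.19). In each of these pairs the lower gene ran against a neighbor far above the common shift. *Gkn3* is followed by *Prokr1*, a prokineticin receptor gene, at 8.96 on the aged array and 7.89 on the young array (1.07). *Rps4l* is followed by the importin gene *Ipo8* (1.21), and *Ppp1r3a* by the transcription factor gene *Foxp2* (1.60).

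Mitosis and DNA repair genes were the list with the largest median. The list, like those that follow, was written from general knowledge and with earlier results of these data known, so its counts are a description beside the 32.8% higher and 6.16% lower of all chromosome 6 genes above background. Of its 19 measured genes, 18 were above background, with 12 at least 2-fold higher, 1 lower by as much and 5 in between, and a median difference of 1.93 against 0.68 for all chromosome 6 genes above background. In replication, *Mcm2* of the helicase was at 10.89 on the aged array and 8.20 on the young array (2.70). *Rad18*, a ubiquitin ligase of DNA repair, was at 12.20 and 9.85 on the aged and the young array (2.35), and *Ogg1*, which removes oxidized guanine, at 10.004 and 8.263 (1.74). *Ezh2*, which methylates histone H3, differed by 1.99, *Ing3* of a histone acetyltransferase complex by 2.39 and the stress gene *Gadd45a* by 2.26. *Fancd2* of the Fanconi anemia pathway, *Rad51ap1* of recombination and *Ncapd2* of condensin were under background on the young array, and so at least 3.87-fold, 2.56-fold and 2.23-fold higher. Members that serve division and *Cdkn1b*, which restrains it, were both higher, and *Ccnd2*, which drives cells from the first gap phase, was lower. *Nup205*, *Recql*, *Setmar*, *Smarcad1* and *Xpc* lay between 0.47 and 0.80. Without this list the median of chromosome 6 was 0.67.

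Promoters of these genes were compared by the motifs printed above. Of the 12 mitosis and repair genes at least 2-fold higher, 11 had a promoter in the RefSeq table, and 9 of these held CCAAT, 3 TTTGAA and 3 both (*Cdca3*, *Mcm2* and *Ncapd2*). Of all 27025 genes with a promoter there, 37.9% held CCAAT, 18.1% TTTGAA and 7.12% both, on either strand. The 3 promoters printed above are thus those with both motifs and do not stand for the higher genes. Among all chromosome 6 genes at least 2-fold higher, 6 of 165 promoters (3.64%) held both, against 107 of 820 (13%) on the 18 other chromosomes. The higher genes had the lowest share on chromosome 6. It was 4.84% for genes less than 2-fold apart, 8.33% for those at least 2-fold lower and 9.22% for those not above background. In CpG content, the median was 19 per promoter for chromosome 6 genes at least 2-fold higher (165 promoters), 18 for those less than 2-fold apart (289), 9 for those at least 2-fold lower (24) and 3 for those not above background (423). The same classes on the 18 other chromosomes had medians of 19, 21, 16 and 4. A match of letters is no evidence of binding, and 901 of the 1050 chromosome 6 genes had a promoter in the table.

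Housekeeping genes of the chromosome mostly lay close to the common shift. Of 29 genes measured for the respiratory chain, mitochondrial ribosome, splicing and vesicle transport, 28 were above background, with 6 at least 2-fold higher, none lower and a median of 0.66. *Ndufa4* of the respiratory chain was at 16.04 on the aged array and 14.96 on the young array (1.08), and the mitochondrial *Phb2* at 15.41 and 14.15 (1.26). *Sec61a1*, the channel for secreted proteins, was at 16.05 and 15.17 on the aged and the young array (0.88), and *Cycs*, cytochrome c, at 16.14 and 15.48 (0.66). The splicing factor gene *Lsm8* had the largest difference, 1.48, and *Mrps25* of the mitochondrial ribosome the smallest, −0.33, so that all 28 lay within that range.

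Metabolic enzymes were higher or lower in shares near those of the whole chromosome. In glycolysis and one-carbon metabolism, 11 of 14 genes were above background, 3 at least 2-fold higher, 1 lower by as much and 7 between, with a median of 0.56. *Tpi1* was at 16.19 on the aged array and 14.75 on the young array (1.44), *Mthfd2* of mitochondrial folate metabolism at 11.13 and 8.71 (2.42), and *Gfpt1*, which starts hexosamine synthesis, at 14.85 and 13.65 (1.20). *Hk2*, hexokinase, differed by 0.76, and the aldo-keto reductases *Akr1b8* and *Akr1b10* by 0.02 and −0.28. The 1 lower gene was *Ldhb*, named above.

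Genes of stomach and pancreas were also near the shares of the whole chromosome. Of 19 measured genes for gastrokines, Reg proteins, carboxypeptidases and epithelial transport, 11 were above background, 3 at least 2-fold higher and 1, *Gkn3*, lower, with a median of 0.33. *Reg3g*, an antibacterial lectin, was at 16.20 on the aged array and 13.98 on the young array (2.22), while its relative *Reg3b* was near background at 5.37 and 6.11. *Cftr* was at 13.1544 and 11.9998 on the aged and the young array (1.15), and the sodium channel subunit *Scnn1a* differed by 0.49. *Gkn2* was close to background on both arrays (5.65 aged, 5.85 young), and *Gkn1*, *Reg1*, *Reg2*, *Reg3a* and *Reg3d* were under it. The pancreatic carboxypeptidase genes *Cpa1*, *Cpa4* and *Cpa5* were under background as well.

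In the HOXA cluster, 4 of 9 measured genes were above background. *Hoxa10* stands alone in brightness, since *Hoxa3* (6.86), *Hoxa4* (6.53) and *Hoxa5* (6.08) reached little above background on the aged array, and 4.49, 5.67 and 5.02 on the young array. *Hoxa3* was at least 2.82-fold higher and *Hoxa5* at least 1.65-fold, while *Hoxa4* differed by 0.86. *Hoxa2*, *Hoxa6*, *Hoxa11*, *Hoxa13* and *Evx1* were under background on both arrays.

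Signaling genes lay on both sides of the common shift. Of 13 genes for growth factor and RAS signaling, 8 were above background with a median of 0.50, and 1, the phosphatase *Dusp16* (1.21), was at least 2-fold higher. The kinase *Braf* was at 12.06 on the aged array and 11.40 on the young array (0.66), and the receptor gene *Met* at 10.59 and 10.22 (0.37). *Lrig1*, which restrains receptors of the EGF family and marks epithelial stem cells, was at 11.36 and 12.23 on the aged and the young array (−0.87), and the kinase *Hipk2* differed by −0.31. Of 11 genes listed for WNT and hedgehog signaling, 5 were above background with a median of 0.68. The ubiquitin ligase *Znrf2* was at 14.92 on the aged array and 13.68 on the young array (1.24). It is not *Znrf3*, which the study assayed among Wnt pathway genes, and its place on the list is no evidence of a WNT role. For *Ctnna2*, an alpha catenin gene and not that of β-catenin, and for *Lrrn1*, being listed is no evidence of a WNT role either. *Ctnna2* was at 6.99 and 5.73 on the aged and the young array (1.26), while the WNT coreceptor *Lrp6* and the hedgehog transducer *Smo* both differed by 0.68. *Lrrn1* was at 4.88 on the aged array, under background, and at 5.81 on the young array, at least 1.21-fold lower. The ligands *Wnt2*, *Wnt5b*, *Wnt7a* and *Wnt16* were under background on both arrays.

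Transcription and chromatin genes had a median of 0.59 over 16 of 24 genes above background, with 5 at least 2-fold higher and 1, *Mxd1*, lower. *Ybx3*, a cold shock protein that binds RNA, was at 15.87 on the aged array and 14.19 on the young array (1.68). *Trim24* was at 15.02 and 13.57 (1.45) and *Cbx3*, of heterochromatin, at 15.52 and 14.17 (1.35) on the aged and the young array. The Polycomb-associated *Rybp* differed by 1.43. *Foxp1* (−0.35), *Etv6* (−0.01) and *Bhlhe40* (0.30) were bright and stayed below the common shift, at 12.66 to 13.97 on the aged array.

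Genes for apoptosis and interferon responses had a median of 0.89 over 12 of 13 genes above background. *Casp2*, a caspase, was at 10.41 on the aged array and 9.07 on the young array (1.34), *Bcl2l14* differed by 1.06 and the receptor gene *Ltbr* by 1.01. *Apobec1* was at 11.41 and 9.48 on the aged and the young array (1.93). *Usp18*, which removes the interferon-induced modifier ISG15 from proteins, was at 10.37 on the aged array and 11.41 on the young array (−1.04), and *Parp12* differed by −0.59, while *Herc6* and *Zc3hav1*, also interferon-responsive, differed by 0.90 and 0.88.

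Imprinted genes were the list with a median below 0. Of 12 measured, 6 were above background, with a median of −0.19, 2 at least 2-fold higher and 2 at least 2-fold lower. *Sgce* and *Ppp1r9a* (5.762 on the aged array and 7.504 on the young array, −1.74), which are neighbors among the genes above background, were lower. *Pon3*, a lactonase, 1 gene further along among those above background, was higher at 15.52 and 14.05 on the aged and the young array (1.47), and *Copg2*, elsewhere on the chromosome, was at 14.13 and 12.63 (1.498). *Peg10* and *Mest*, which are expressed from the paternal copy, were under background on both arrays.

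Among 50 genes of the families that make up the natural killer gene complex, picked by symbol and not by position, 9 were above background. The *Clec2* genes *Clec2d*, *Clec2e*, *Clec2f* and *Clec2h* were at least 2-fold higher, though *Clec2h* was under background on the young array and at least 1.22-fold higher. *Clec2g*, in the same cluster, was at 8.37 on the aged array and 8.10 on the young array (0.27), so the genes of the cluster did not differ alike. *Klrg2*, which lies apart in the fourth window, was at 10.24 on the aged array and 10.18 on the young array (0.06), and the other *Klr* genes were near or under background. None of the 120 taste, olfactory and vomeronasal receptor genes was at least 2-fold apart among the 6 above background. Because olfactory and vomeronasal genes set the background, few could pass it, and nothing is read from this. Of 8 *Gimap* genes, which act in lymphocytes, *Gimap4* and *Gimap8* were above background, at 5.67 and 5.93 on the aged array and 4.94 and 5.73 on the young array.

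**Figure D5:**
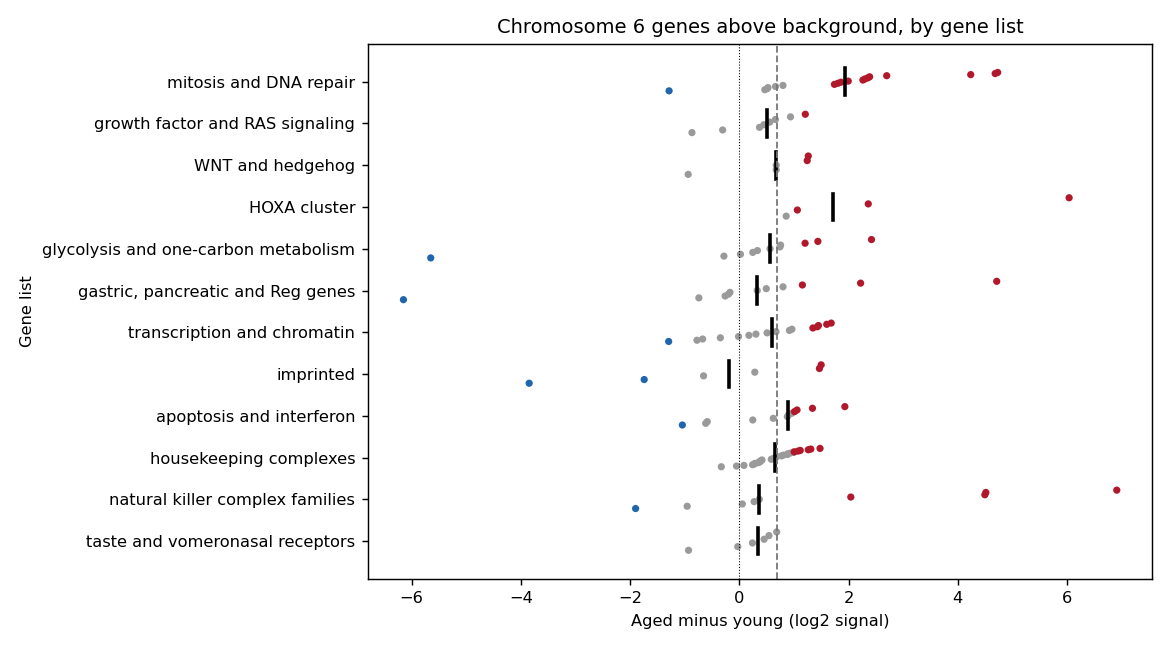
Each point is a chromosome 6 gene above background, placed by its difference (aged minus young, log2 signal) within its gene list, in red where at least 2-fold higher, blue where at least 2-fold lower and gray between; black bars are list medians and the dashed line is the median of all chromosome 6 genes above background, 0.68. Mitosis and DNA repair has the bar farthest to the right (1.93) and imprinted genes the one bar left of 0 (−0.19).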

How the data were processed

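Total RNA of aged and of young gastric organoids was hybridized to Clariom S arrays, 1 per group. The deposited log2 values are probe set signals that the authors computed with RMA in Affymetrix Power Tools, per the submitters' processing notes; versions and the genome build of the probe sets are not given in the sources used here, and base 2 is assumed. RMA brings arrays to a common distribution, so a change shared by all genes cannot be seen. Of 22206 probe sets, 19572 with 1 symbol were kept (2634 did not carry exactly 1). The probe sets of 55 genes with several were averaged, giving 19505 genes. On chromosome 6, 98 of 1148 probe sets did not carry exactly 1 symbol. No further normalization was applied.

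Genes were described when above background on at least 1 array and counted when at least 2-fold apart. For a gene under the reference on the dim array, the reference replaced that signal and gives a lower bound. The differences of the receptor genes had a median of 0.12 (SD, 0.507). This SD is the spread across dim genes of the same arrays and not an error between replicates. Genes named are the 15 largest and 15 smallest differences (bounds used), list members, the 10 brightest, the extremes of each window and the opposite neighbors with the widest gaps. Genes of runs, at the 2-fold line and among the 34 lower genes were named after their values were seen. Members and lists were chosen with earlier results of these data known. Some genes written on the lists were not analysed here. The steps were tested on simulated arrays. Python 3.11.15, numpy 2.4.6, pandas 2.3.3, statsmodels 0.14.6 and matplotlib 3.10.9 were used.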

Additional observations from a re-analysis of the deposited data

How the results depend on the processing

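The alternatives covered the scaling of the arrays, the background reference, the averaging of probe sets, the fold threshold and the windows. The median difference of chromosome 6 was 0.69 after quantile normalization, 0.72 when centred on the other chromosomes and 0.74 after lowess on mean signal, and 0.65 with genes at their bounds, an alternative chosen after seeing the data. Without a background filter, which adds the genes under background, the median was 0.30 and the lowest window median 0.0586. With the signal above background on both arrays, 21 genes were at least 2-fold lower. At 1.5-fold there were 311 higher and 55 lower genes, at 3-fold 80 and 21, and counted from the chromosome 6 median 68 and 73. With 40 windows in identifier order the lowest median was 0.22. The other 33 values moved by less than 1.5 times, and no median changed its sign. Counted from the chromosome 6 median, however, lower genes (73) outnumbered higher ones (68). The 40 genes named for their size or brightness kept their direction in all 120 values recomputed under 3 scalings. These scalings shifted a gene by 0.11 at most, so those named for a large difference could not have reversed. No paired analysis was possible because each group has 1 array, and for the same reason no replicate could be left out. The number of arrays limits the precision, and genes near background are measured least well.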
